A study of Mus musculus with 20 samples.

Results

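In the abdominal aorta of mice labelled KO, 1124 single Ensembl transcripts could be followed from saline to angiotensin II (Ang II) infusion. They are the Ensembl transcripts listed both in the KO saline tables, which hold 1337, and in the KO Ang II tables, which hold 32945, out of 34758 listed in any table of the series. Transcript models that the authors assembled themselves and named MERGE were left out, and no transcripts were added up to genes. The members came from 1041 genes, and 73 of these genes had at least 2 members.

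The series holds 20 libraries in 4 groups of 5, each library named here by its title, where NS stands for saline. Saline gave the KO libraries KONS_387, KONS_412, KONS_555, KONS_608 and KONS_627. Infusion with Ang II at a dose of 500 ng per kg and min gave the KO libraries KOAng_II402, KOAngII537, KOAngII560, KOAngII612 and KOAngII628. The wild-type (WT) libraries were WTNS_369, WTNS_373, WTNS_523, WTNS_547 and WTNS_550 for saline and WTAng_II519, WTAng_II536, WTAngII568, WTAngII580 and WTAngII581 for Ang II at the same dose. No number in these titles occurs in more than 1 group. The labels used here give no strain, age, sex or length of infusion, and do not say which part of the gene was deleted, in which cells, or that the libraries are separate animals, so the p-values below measure the spread between these libraries only. For the KO saline libraries the labels disagree, with WT in the description but KO in title and genotype, and here the title was followed. DAPK1, which the title of the series names, is a protein kinase that calcium and calmodulin activate. Dapk1-202, the only Dapk1 transcript listed in both genotypes, was at 4.51, 9.46, 0.514, 6.51 and 2.73 FPKM (sequenced fragments, corrected for transcript length and library size) in the libraries labelled KO Ang II. It was at 15.4, 9.48, 10.1, 12.6 and 12.9 in WT saline and at 9.16, 19.9, 3.96, 9.5 and 11.1 in WT Ang II. The libraries labelled KO Ang II thus lay below all WT saline libraries, narrowly so in KOAngII537, and overlapped WT Ang II. Added over the 3 Dapk1 transcripts listed there, KO Ang II was at 6.91, 10.3, 13.8, 6.85 and 5.0. The Dapk1 level of the libraries labelled KO saline was not analysed here, so their label was not checked by it, and no Dapk1 transcript is among the 1124 members. Smooth muscle markers were abundant: Acta2, smooth muscle actin, was at 2960.0 to 5420.0 FPKM in KO Ang II and 3140.0 to 8370.0 over the WT groups.

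Angiotensin II is the peptide of the renin-angiotensin system that constricts arteries through receptors on smooth muscle cells. Long infusion thickens the arterial wall and adds matrix to it. Most genes give rise to several transcripts, which differ in their promoters, in the exons that are joined and in where they end. Some code for proteins that differ by a short stretch, others keep an intron or carry an early stop codon and give little or no full-length protein.

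The KO saline tables are not a random part of the transcriptome. They hold 2025 rows, against 49714 in the KO Ang II and 49773 in the WT tables. A mean of at least 0.5 FPKM in KO saline or KO Ang II was met by 1123 of the 1124 members. In KO Ang II minus KO saline, 662 members were higher and 462 lower, and only 18 differed by less than 0.2 in mean log2(FPKM + 1), the scale used for every difference below. Of the 976 members also listed in WT, 516 were higher and 460 lower. Most of the excess of higher members thus lay among those not listed in WT. How far the need to be listed in KO Ang II shapes this split was not tested. Of the 944 members that averaged 0.5 FPKM or more over all 10 libraries, 666 (70.6%) had an unadjusted p under 0.05 by limma. Among all 29635 transcripts tested in WT Ang II against WT saline, that share was 5.01%. The rows therefore appear to have been kept for this same difference. For that reason the KO difference is described here with values, standard errors (SE) and counts, without p-values for single transcripts, and nothing is read from how many members passed. The 213 Ensembl transcripts of the KO saline tables that are not in the KO Ang II tables had a median of 0.676 FPKM in KO saline, against 1.026 for the members. The authors' models may also differ between the tables: 46 of 688 MERGE names of the KO saline tables occur in the KO Ang II tables, while 15483 of the 16769 MERGE names of the latter occur in WT. The values of transcripts that share exons are estimates, and the sources used here do not say how shared reads were divided.

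At an adjusted p under 0.05 (limma, Benjamini-Hochberg over the 944), 374 members (39.6%) passed, 187 of them (19.8%) higher and 187 (19.8%) lower in KO Ang II. With every library scaled to the same median the split was 161 higher and 257 lower. Leaving out KONS_412 lowered the count of 374 to 193, and leaving out KONS_387 gave 219, KOAng_II402 gave 233, KOAngII537 gave 230, KOAngII612 gave 232 and KOAngII628 gave 224. In 89 members (7.92%) each KO Ang II library lay above each KO saline library, and in 82 (7.3%) each lay below. The filter removed 180 members, 134 of them higher and 46 lower. In the text below, "past the threshold" means an adjusted p under 0.05 in this fit.

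Some isoforms of the same gene went in opposite directions, about as often as members of different genes did. Of the 73 genes with at least 2 members, 40 (54.8%) had members in both directions, 22 had only higher and 11 only lower members. Of the 91 pairs of members within a gene 46 (50.5%) differed in direction, against 48.5% of all pairs of members from different genes. In 12 genes a member passed the threshold in each direction: Camk2d, Cnp, Ddx24, Fkbp8, Mlh3, Rbm39, Rbms1, Rpl34, Rps26, Srrt, Stab1 and Tprkb. The exons below set apart the coding isoforms of 4 genes described next, and are shown because the coding sequences of each pair differ by exactly these stretches. Outside the coding sequence the Camk2d, Aplp2 and Mlh3 pairs differ further. Capitals mark the stretch that is present in the first transcript and absent from the second, lower case the 7 (first line) or 15 bases of joined transcript on each side, read 5′ to 3′ on the coding strand from GRCm38 with GENCODE exons.
Fn1-211 but not Fn1-213, minus strand of chr1:71597388-71597672, 285 bases that are part of an exon in the variable region of fibronectin: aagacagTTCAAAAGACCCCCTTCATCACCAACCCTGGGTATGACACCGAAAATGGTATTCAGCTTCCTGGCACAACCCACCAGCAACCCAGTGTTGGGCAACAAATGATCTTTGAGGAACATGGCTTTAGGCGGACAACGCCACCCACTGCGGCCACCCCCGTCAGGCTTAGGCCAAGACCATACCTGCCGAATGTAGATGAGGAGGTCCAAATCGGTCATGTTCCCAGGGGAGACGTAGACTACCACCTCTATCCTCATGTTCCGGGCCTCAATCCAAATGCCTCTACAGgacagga
Fn1-213 but not Fn1-216, minus strand of chr1:71603660-71603929, 270 bases, the extra domain A exon: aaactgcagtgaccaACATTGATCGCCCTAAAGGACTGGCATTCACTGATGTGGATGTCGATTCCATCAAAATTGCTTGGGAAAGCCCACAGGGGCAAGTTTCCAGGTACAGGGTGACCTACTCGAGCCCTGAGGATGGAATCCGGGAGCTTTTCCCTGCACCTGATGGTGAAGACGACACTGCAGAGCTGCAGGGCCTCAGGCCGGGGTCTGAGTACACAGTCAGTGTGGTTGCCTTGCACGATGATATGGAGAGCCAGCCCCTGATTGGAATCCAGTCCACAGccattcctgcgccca
Camk2d-228 but not Camk2d-226, plus strand of chr3:126805857-126805916, 60 bases in the variable linker: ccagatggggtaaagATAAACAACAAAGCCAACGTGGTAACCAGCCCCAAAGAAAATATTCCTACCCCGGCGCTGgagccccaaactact
Camk2d-228 but not Camk2d-226, plus strand of chr3:126808208-126808249, 42 bases, the next exon of the same linker: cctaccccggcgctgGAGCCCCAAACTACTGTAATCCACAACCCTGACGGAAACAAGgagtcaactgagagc
Aplp2-201 but not Aplp2-209, minus strand of chr9:31167561-31167728, 168 bases, the Kunitz protease inhibitor exon: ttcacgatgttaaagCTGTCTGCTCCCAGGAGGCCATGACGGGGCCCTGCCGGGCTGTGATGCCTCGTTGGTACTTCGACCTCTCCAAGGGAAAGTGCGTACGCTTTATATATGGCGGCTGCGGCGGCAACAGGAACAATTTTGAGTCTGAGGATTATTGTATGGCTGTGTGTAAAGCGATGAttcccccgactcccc
Mlh3-203 but not Mlh3-201, minus strand of chr12:85262767-85262862, 96 bases: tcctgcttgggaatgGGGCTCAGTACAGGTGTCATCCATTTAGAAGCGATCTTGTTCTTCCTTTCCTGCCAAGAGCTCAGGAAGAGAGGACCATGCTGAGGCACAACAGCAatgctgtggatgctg

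Fibronectin (Fn1) had 4 members. It is a matrix glycoprotein that binds integrins, and its extra domain A and variable region are joined in or left out by alternative splicing. Fn1-211 (ENSMUST00000187938, 45 exons), which holds both stretches shown, was at 6.02, 3.48, 4.73, 4.81 and 4.92 FPKM in KO saline and at 7.18, 6.17, 14.6, 25.9 and 7.27 in KO Ang II. Every KO Ang II library lay above every KO saline library, with a difference of 1.01 (SE 0.45), which was not past the threshold. Fn1-213, which lacks the 285 bases, went from a mean of 4.73 ± 1.73 to 13.4 ± 8.87 FPKM (SD, n = 5), and Fn1-216, which lacks both, from 2.65 ± 1.14 to 8.1 ± 6.56, with overlap in both and neither past the threshold. These 3 coding transcripts, with and without extra domain A, thus had higher means in KO Ang II alike. They made up only 2.45%, 2.79% and 1.86% of the Fn1 total over 14 listed transcripts in KO Ang II, so they say little of the gene as a whole. In WT their means were also higher with Ang II, at 6.46 and 9.12 FPKM for Fn1-211, 4.47 and 9.78 for Fn1-213, and 2.03 and 6.75 for Fn1-216. These WT means rest on WTAng_II519, at 22.1, 23.9 and 19.3 FPKM, and without it the WT Ang II means were 5.88, 6.25 and 3.61, so that Fn1-211 was then lower than in WT saline. The lowest limma p of the 3 in WT was 0.0451, for Fn1-216 (adjusted p = 0.936). The fourth member, Fn1-215 (ENSMUST00000189160, chr1:71604097-71624344, minus strand), is a shorter annotated transcript with a retained intron. It was at 304.0, 196.0, 29.7, 219.0 and 210.0 FPKM in KO saline and at 21.1, 25.5, 51.7, 79.3 and 26.2 in KO Ang II, a difference of -2.06 (SE 0.63), past the threshold. KONS_555 lay among the KO Ang II libraries and the other KO saline libraries above them all. In WT the means of Fn1-215 went the other way, from 112.0 to 180.0 FPKM, with wide overlap (difference 0.83, SE 0.81, adjusted p = 0.942). The call for Fn1-215 was lost in 6 of the 10 fits that leave out a library.

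**Figure D1:**
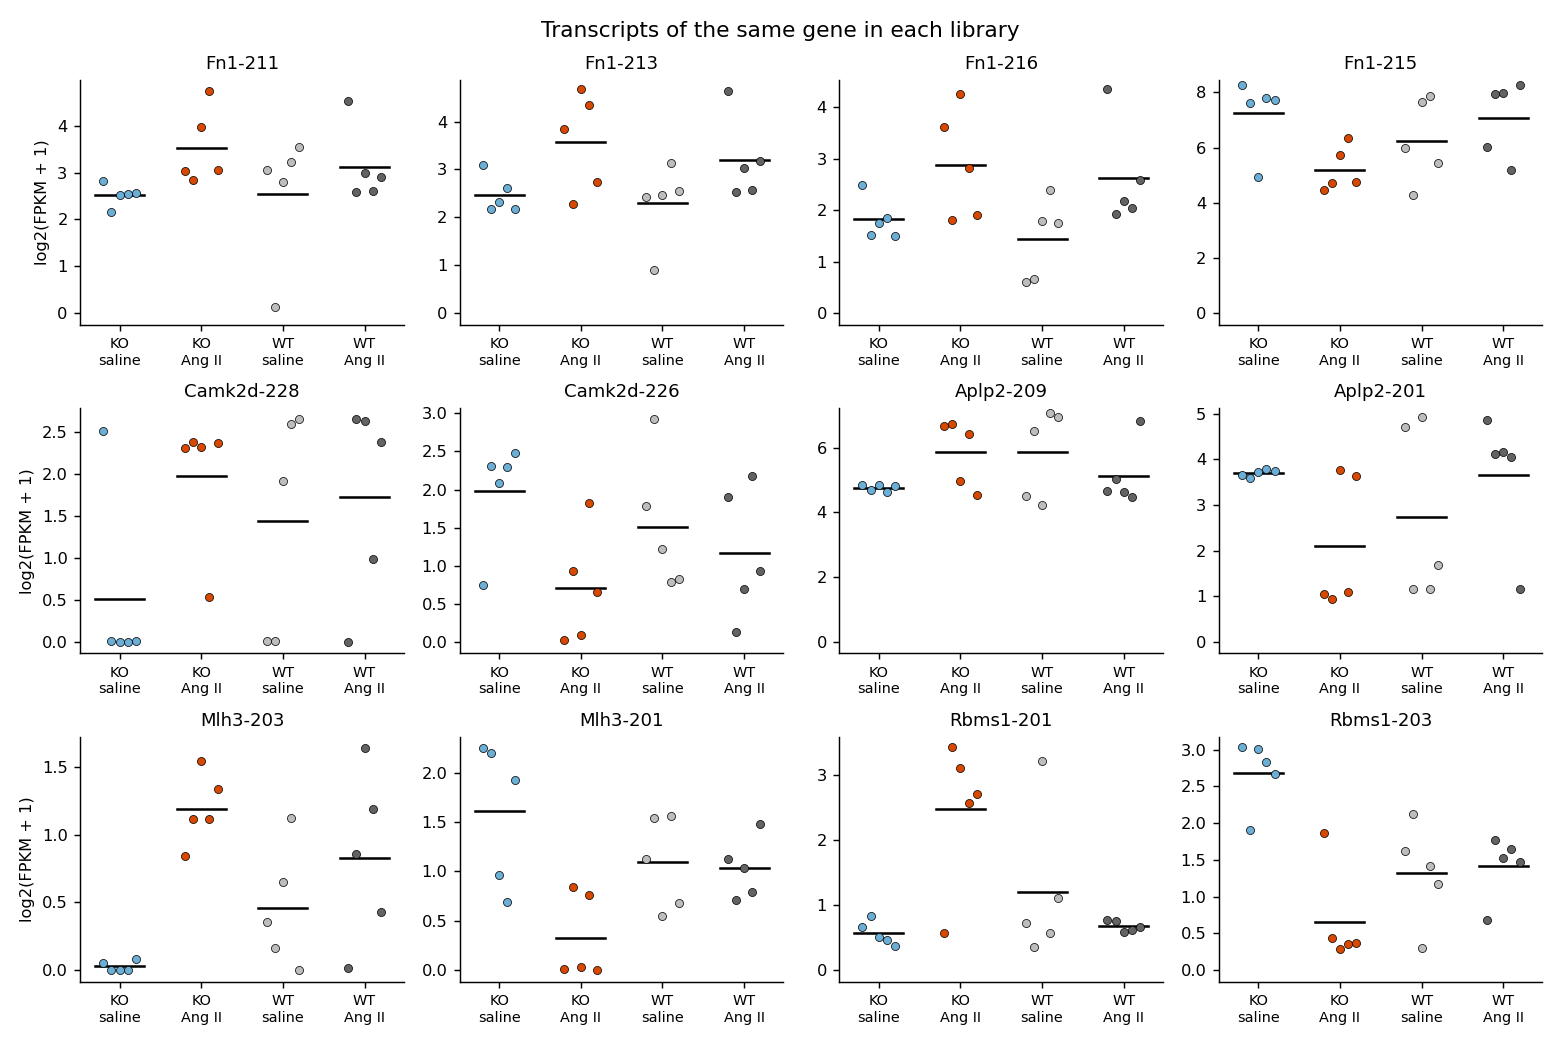
Log2(FPKM + 1) of 12 member transcripts from 5 genes, 1 point per library in each of the 4 groups, with the group mean as a line. Each panel has its own vertical axis starting at 0. In Rbms1 and Mlh3 the paired transcripts sit on opposite sides between the KO groups, and the WT groups overlap in every panel.

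Camk2d codes for the delta isoform of calcium/calmodulin-dependent protein kinase II, whose linker between the regulatory and association domains varies by splicing. Camk2d-228 (ENSMUST00000200171), with both linker exons shown, was at 4.68, 0.00266, 0.0, 0.0 and 0.00253 FPKM in KO saline and at 3.95, 4.2, 3.98, 0.446 and 4.16 in KO Ang II. Camk2d-226 (ENSMUST00000199300), without them, was at 0.679, 3.96, 3.26, 3.91 and 4.58 in KO saline and at 0.0129, 0.906, 0.0599, 2.55 and 0.571 in KO Ang II. Libraries high in Camk2d-228 were low in Camk2d-226, and KONS_387 and KOAngII612 each stood with the opposite group in both. The differences were 1.48 (SE 0.52) and -1.28 (SE 0.42), both past the threshold, and were lost in 8 and 7 of the 10 fits without a library. In WT saline Camk2d-228 was at 0.00877, 0.00295, 2.76, 5.04 and 5.28 and in WT Ang II at 0.0, 5.28, 5.17, 0.983 and 4.22, so libraries near 0 and libraries at several FPKM occurred within each WT group (difference 0.29, SE 0.72, adjusted p = 0.975).

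Aplp2, amyloid precursor-like protein 2, is a membrane protein made with or without a Kunitz protease inhibitor domain. Aplp2-201, with the Kunitz exon, was at 11.6, 11.0, 12.3, 12.9 and 12.4 FPKM in KO saline and at 1.05, 0.923, 12.6, 1.14 and 11.5 in KO Ang II. Aplp2-209, without it, was at 27.7, 25.2, 27.7, 23.9 and 27.2 in KO saline and at 101.0, 106.0, 30.7, 85.1 and 22.2 in KO Ang II. The KO saline libraries were close together, while KO Ang II split into 3 libraries with little Aplp2-201 and 2, KOAngII560 and KOAngII628, at the KO saline level. Aplp2-201 made up 2.26% ± 2.65 and Aplp2-209 23.1% ± 10.9 of the Aplp2 total over 9 listed transcripts in KO Ang II. The other Aplp2 transcripts were not examined for the Kunitz exon, so this pair says little of the gene as a whole. The difference was -1.61 (SE 0.6) for Aplp2-201, past the threshold but not in 8 of the 10 fits without a library, and 1.1 (SE 0.5) for Aplp2-209, not past it. Aplp2-201 in WT ranged from 1.22 to 29.4 FPKM with saline and from 1.21 to 28.3 with Ang II, so both levels occurred in each WT group.

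Mlh3 codes for a DNA mismatch repair protein that also acts in meiotic crossing over. Mlh3-203 (ENSMUST00000220854), with the exon shown, was at 0.0387, 0.0, 0.0, 0.0 and 0.058 FPKM in KO saline and at 0.789, 1.17, 1.92, 1.17 and 1.53 in KO Ang II. Mlh3-201 (ENSMUST00000019378), without it, was at 3.77, 3.61, 0.951, 0.616 and 2.8 in KO saline and at 0.00522, 0.788, 0.0202, 0.7 and 0.0026 in KO Ang II. The groups were fully apart for Mlh3-203, while for Mlh3-201 they overlapped at the level of KONS_608. The differences were 1.17 (SE 0.17) and -1.28 (SE 0.34), past the threshold in the fit and with any 1 library left out. In WT saline Mlh3-203 was at 0.282, 0.119, 0.573, 1.18 and 0.0 FPKM and in WT Ang II at 0.0103, 0.812, 2.12, 1.28 and 0.344. WT libraries thus spanned the range of both KO groups, with a difference of 0.37 (SE 0.32, adjusted p = 0.936).

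Among RNA-binding proteins, Rbms1 and Rbm39 each had a coding transcript that was higher and a transcript with no full coding role that was lower. Rbms1-201, the coding form of a single-stranded nucleic acid binding protein, was at 0.58, 0.789, 0.422, 0.385 and 0.289 FPKM in KO saline and at 0.492, 9.85, 7.66, 4.93 and 5.58 in KO Ang II. Rbms1-203, a short processed transcript, was at 7.21, 2.74, 7.02, 6.1 and 5.33 and at 2.64, 0.347, 0.214, 0.275 and 0.287. KOAng_II402 stood at the KO saline level for Rbms1-201 and just under it for Rbms1-203. Differences were 1.91 (SE 0.46) and -2.03 (SE 0.39), and neither call was lost when a library was left out. Rbm39 codes for an SR-like splicing factor. Its coding Rbm39-203 was at 0.0697, 0.0612, 0.0102, 0.0808 and 3.41 FPKM in KO saline and at 2.5, 1.7, 13.6, 41.1 and 23.1 in KO Ang II. Rbm39-225, annotated as a target of nonsense-mediated decay, was at 7.66, 6.3, 6.32, 7.65 and 14.1 and at 2.52, 5.04, 3.35, 1.52 and 1.41. KONS_627 was the highest of its group for both. The differences were 2.93 (SE 0.73) and -1.35 (SE 0.41), the latter lost in 3 of the 10 fits without a library.

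Stab1, a scavenger receptor of macrophages and sinusoidal endothelium, and Rps26, a protein of the small ribosomal subunit, also split. Stab1-204, a short transcript with a retained intron, was at 8.17, 0.0928, 0.0463, 0.0108 and 0.011 FPKM in KO saline and at 9.7, 8.38, 14.7, 13.4 and 7.72 in KO Ang II. Its difference was 2.83 (SE 0.58), and WT saline stood at 9.38, 12.6, 9.49, 11.2 and 9.99 FPKM. For Stab1-204 the 4 KO saline libraries near 0 were thus the low ones, while KONS_387 and all WT saline libraries were near the KO Ang II level. Full-length Stab1-201 had means of 6.35 ± 3.85 and 2.07 ± 0.464 FPKM, a difference of -1.11 (SE 0.42) that was past the threshold but lost in 9 of the 10 fits without a library. Rps26-201 was at 0.267, 87.8, 0.0, 98.8 and 0.02 in KO saline and at 119.0, 88.0, 154.0, 176.0 and 113.0 in KO Ang II. Rps26-202, with a retained intron, was at 166.0, 105.0, 173.0, 60.4 and 180.0 and at 13.8, 58.3, 7.49, 32.2 and 29.1. KONS_412 and KONS_608, with Rps26-201 values near the KO Ang II level, were the lowest of their group for Rps26-202. The differences were 4.3 (SE 1.25) and -2.43 (SE 0.56), and Rps26-201 lost its call without KONS_387 or KONS_627. Rps26 has near-identical processed copies (Rps26-ps1-202 is itself a member, at means of 20.7 and 5.81 FPKM), so these values are uncertain.

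The largest lower difference was that of Oaz1-203, and the largest higher one among transcripts without overlap was that of Tgfb1i1-203. Oaz1 codes for ornithine decarboxylase antizyme, the inhibitor of polyamine synthesis. Oaz1-203 (ENSMUST00000179172, chr10:80826693-80829005, plus strand) was at 73.7, 59.2, 62.2, 40.7 and 64.7 FPKM in KO saline and at 3.2, 3.34, 0.0, 6.58 and 0.0 in KO Ang II, a difference of -4.49 (SE 0.59). WT libraries ranged from 0.0 to 11.2 with saline and from 0.0 to 15.1 with Ang II. For Oaz1-203 the KO saline libraries were thus the ones that stood apart, and KO Ang II lay within the WT range. It made up 5.56% ± 5.51 (SD, n = 5) of the Oaz1 total over 6 listed transcripts in KO Ang II. Htra3-201, a secreted serine protease, was at 27.7, 47.6, 41.3, 40.0 and 44.0 FPKM in KO saline and at 3.87, 1.15, 1.59, 4.28 and 0.501 in KO Ang II (difference -3.79, SE 0.45). In WT saline Htra3-201 was between 2.81 and 47.5 and in WT Ang II between 1.09 and 14.9, with 1 WT saline library (WTNS_547) in the KO saline range.

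Sgcd-201, delta-sarcoglycan of the dystrophin complex in muscle membranes, was at 30.1, 32.3, 26.9, 22.0 and 27.8 FPKM in KO saline. In KO Ang II it was at 0.0706, 21.7, 0.204, 0.0421 and 21.7. The KO Ang II libraries thus fell into 2 levels, and those at 21.7 lay just under the lowest KO saline value. WT libraries were between 20.4 and 33.2 in both groups. The difference of -2.95 (SE 0.88) was lost without KOAng_II402 or KOAngII612. Caprin1-201, an RNA granule protein, was at 8.87, 7.04, 2.02, 16.8 and 10.9 and at 1.04, 0.9, 0.976, 0.413 and 0.691 (difference -2.29, SE 0.45). It made up 1.72% ± 0.558 of the Caprin1 total in KO Ang II. It was without overlap between the KO groups, whereas each WT group held libraries under 0.5 and over 15 FPKM. Other members with the largest lower differences were Max-202, the partner of Myc, Lrrc47-201, Pacsin3-215, Tmem33-201, Gnl3-206 and Tmem123-201.

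Tgfb1i1 codes for Hic-5, a focal adhesion adaptor of smooth muscle that is induced by TGF-beta. Tgfb1i1-203 (ENSMUST00000163609) was at 0.106, 1.14, 0.0815, 0.101 and 0.0518 FPKM in KO saline and at 4.0, 51.1, 1.98, 3.68 and 35.4 in KO Ang II, a difference of 3.09 (SE 0.72). Here too 2 levels occurred: KOAngII537 and KOAngII628 were far above the other 3, and among WT libraries only WTNS_523 was high, at 103.0, with the other 9 between 0.0151 and 0.702. Psmc4-204, a retained intron form of a proteasome ATPase, was at 3.31, 2.41, 2.63, 3.01 and 3.47 in KO saline and at 16.3, 17.1, 10.7, 27.8 and 8.41 in KO Ang II (difference 2.0, SE 0.41). In WT it was at 2.21 in WTNS_550 and at 0.0427 in WTAng_II519, below every KO saline library, and between 8.24 and 18.8 in the other libraries of both groups, above them all. Rdh13-201, a mitochondrial retinol dehydrogenase, had means of 0.578 ± 0.449 and 5.57 ± 2.56 FPKM, against 5.88 and 6.04 in WT saline and WT Ang II. Cnep1r1-204, annotated for nonsense-mediated decay, from a gene for a regulator of nuclear envelope phosphatase, had means of 1.43 ± 0.751 and 7.75 ± 2.53. Ndufa3-204, annotated for nonsense-mediated decay, from the gene of a complex I subunit, was listed at 0 in each KO saline library. In KO Ang II it had a mean of 2.34 FPKM. The others among the 12 largest were Wfdc21-201 and 6 gut transcripts: Reg3b-201, Reg3g-201, Defa17-201, Defa30-201, Defa36-201 and Fabp6-201.

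**Figure D2:**
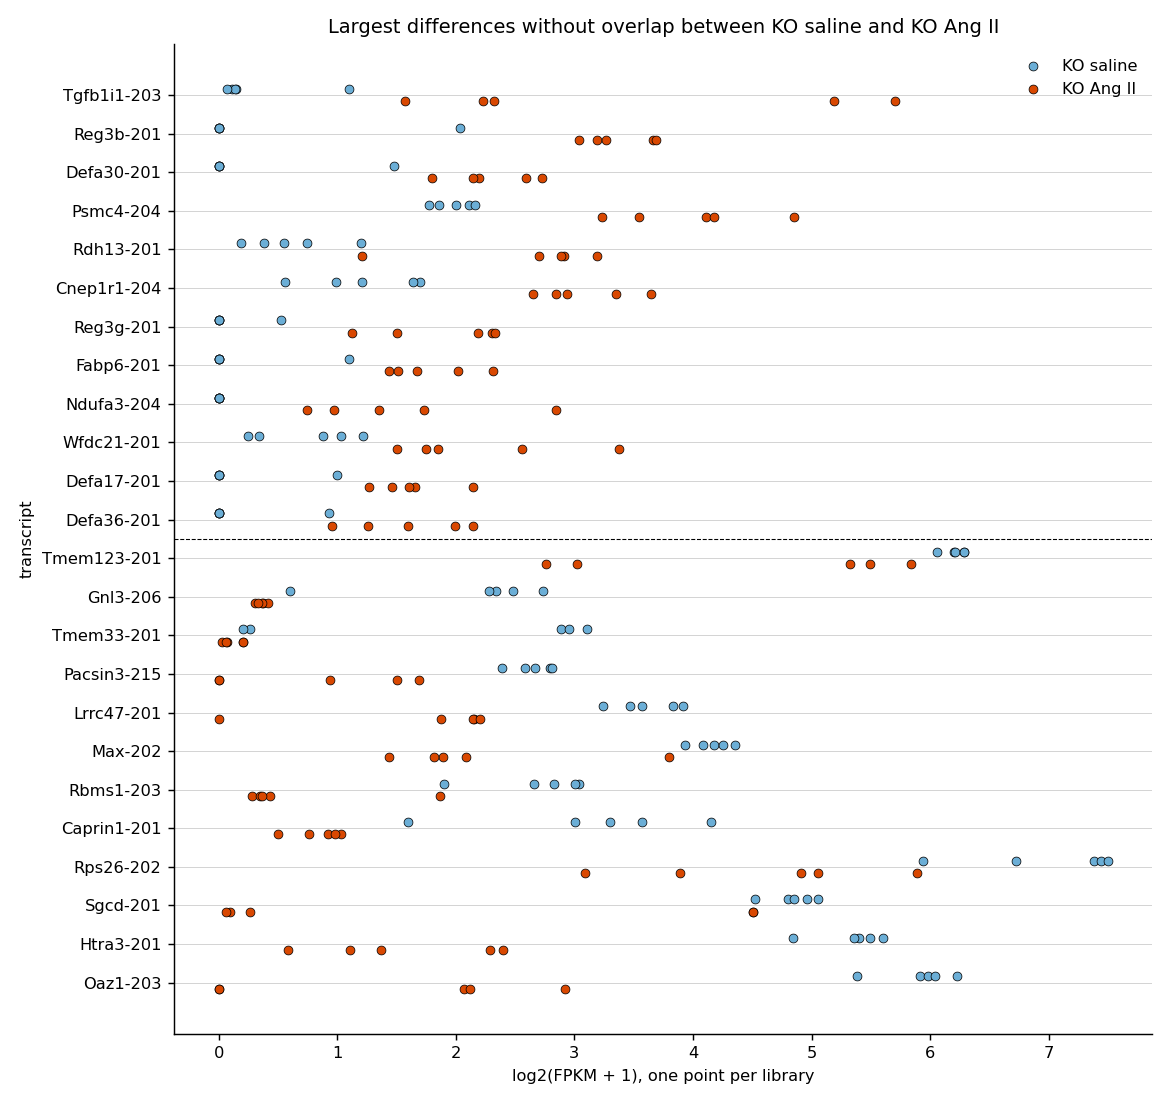
Log2(FPKM + 1) in each KO library for the 12 higher (above the dashed line) and 12 lower members with the largest differences among those past the threshold and without overlap between groups, KO saline in blue and KO Ang II in orange. Oaz1-203 reaches 6.58 FPKM at most in KO Ang II, and Sgcd-201, Tgfb1i1-203 and Tmem123-201 show 2 levels within KO Ang II.

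Contractile smooth muscle genes had 5 members, 4 lower and 1 higher, with a median difference of -1.28 beside 0.41 for all members. Over all 944 tested members 39.6% passed the threshold, 19.8% in each direction, the share to set beside this list and those below. Of the 5, 2 passed the threshold as lower and 1 as higher. With libraries scaled to the same median these were 4 and 0, and without KONS_627 they were 1 and 0. Myh11-201, a smooth muscle myosin heavy chain transcript, was at 13.3, 87.1, 23.2, 30.9 and 56.5 FPKM in KO saline and at 6.5, 4.31, 14.0, 30.8 and 12.6 in KO Ang II (difference -1.55, SE 0.61, not past the threshold). It made up only 1.96% ± 1.61 of the Myh11 total in KO Ang II, so it says little of the gene as a whole. Tpm2-205, a processed transcript of beta-tropomyosin, was at 97.9, 117.0, 170.0, 358.0 and 70.3 and at 41.8, 62.8, 86.6, 45.6 and 47.7 (difference -1.31, SE 0.49, lost in 8 of the 10 fits without a library). Smtn-206, a short smoothelin transcript, was at 0.806, 0.757, 0.755, 0.406 and 0.763 and at 1.6, 1.23, 1.39, 1.74 and 1.89, fully apart and higher (difference 0.6, SE 0.21, lost in 9 of the 10). It made up 0.602% ± 0.0949 of the Smtn total in KO Ang II. In WT the median difference of the 5 members was 0.09, and between -0.14 and 0.48 with 1 library left out. In tissue RNA, fewer cells of a type and less RNA per cell cannot be told apart.

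The list of RhoA-ROCK pathway genes and GTPase regulators had 11 members, 7 lower and 4 higher. Apart from Dapk3-205 they were Arhgap and Arhgef transcripts, matched by name. No RhoA, ROCK or myosin phosphatase gene was among them. Of the 11 members, 9 were tested. Of these, 4 passed the threshold, all lower: Arhgap29-201, Arhgap23-203, Arhgap45-201 and Arhgap21-205, each of a GTPase-activating protein, which turns small GTPases off. Arhgap29-201 was at 19.7, 16.1, 21.2, 2.76 and 20.1 FPKM in KO saline and at 0.00493, 0.147, 3.25, 5.79 and 2.94 in KO Ang II (difference -2.44, SE 0.65). KONS_608 stood with the KO Ang II libraries, and in WT the range was 0.00529 to 15.8 with saline and 0.0 to 7.55 with Ang II. Dapk3-205, the only member of the DAPK family, was at 0.0, 1.89, 0.0, 0.0 and 0.203 FPKM in KO saline and at 0.637, 0.451, 0.65, 1.01 and 0.459 in KO Ang II (difference 0.35, SE 0.28, not past the threshold). It made up 3.1% ± 1.05 of the Dapk3 total in KO Ang II.

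Calcium and potassium channel and calcium handling genes had 8 members, 4 in each direction, of which 3 passed as higher and 2 as lower. Kcnma1-205, the pore of the large-conductance calcium-activated potassium channel that relaxes arteries, was at 0.0347, 0.486, 0.0248, 0.903 and 0.0383 FPKM in KO saline and at 1.93, 2.27, 1.62, 1.68 and 1.82 in KO Ang II. The KO groups were fully apart (difference 1.19, SE 0.23), and WT saline ranged from 0.297 to 3.6 and WT Ang II from 0.171 to 3.89. Ryr2-207, a short transcript of the ryanodine receptor of the sarcoplasmic reticulum, was at 0.567, 0.00929, 0.477, 0.42 and 0.0 and at 0.744, 1.45, 0.652, 1.09 and 0.825 (difference 0.6, SE 0.2, lost in 4 of the 10 fits without a library). The 2 Camk2d transcripts belong to this list, as does Atp2b4-204 of a plasma membrane calcium pump, with means of 1.03 and 0.349 FPKM (lost in 7 of the 10).

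Collagen and matrix genes had 11 members from 8 genes, 9 higher and 2 lower, with a median difference of 1.01. Past the threshold were Col15a1-201, Col18a1-205 and Spp1-204 as higher and Fn1-215 as lower, and without KONS_627 there were 2 higher and 0 lower. Col15a1-201, the basement membrane collagen XV chain, was at 0.0, 0.0, 0.0, 42.3 and 49.5 FPKM in KO saline and at 59.6, 23.0, 31.3, 114.0 and 50.9 in KO Ang II. Its difference of 3.39 (SE 1.13) came with KONS_608 and KONS_627 at the KO Ang II level, and it was lost in 6 of the 10 fits without a library. In WT 3 saline and 2 Ang II libraries were also listed at 0, and the rest were between 36.4 and 77.5. Col18a1-205, a 675-base transcript of the collagen XVIII gene whose C-terminal fragment is endostatin, was at 0.705, 2.49, 0.0, 5.06 and 0.0 and at 1.92, 20.5, 21.2, 56.3 and 21.6 (difference 3.12, SE 0.74). Efemp2-201, fibulin-4 of elastic fibre assembly, was at 9.65, 8.31, 8.82, 8.13 and 4.62 and at 9.74, 9.74, 32.5, 17.0 and 16.1, without overlap by a margin of 0.09 FPKM but not past the threshold. The median WT difference of the members of this list that WT tables hold was 0.86, in the same direction, and none of them passed in WT. Without WTNS_373 that median was 0.32 and without WTAng_II519 it was 0.53.

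All 11 members of the oxidative phosphorylation list were higher, with a median of 1.24, and 4 passed the threshold, among them Atp5h-204, Ndufa3-204 and Atp5c1-206. Atp5h-204, a processed transcript of an ATP synthase subunit, was at 1.4, 0.928, 1.49, 1.94 and 1.63 FPKM in KO saline and at 11.8, 11.5, 1.57, 8.75 and 13.1 in KO Ang II (difference 1.86, SE 0.48). KOAngII560 was the exception, at the KO saline level. In KO Ang II Atp5h-204 made up 4.39% ± 1.92 of the Atp5h total and Ndufa3-204 14.6% ± 25.9 of the Ndufa3 total. These transcripts thus say little of their genes as a whole. Cox7a1-201, described next, made up 94.5% ± 1.62 of the Cox7a1 total. Cox7a1-201, of a cytochrome c oxidase subunit and on the brown adipocyte marker list, was at 3.49, 22.2, 34.7, 53.8 and 33.0 in KO saline and at 148.0, 96.3, 21.8, 54.6 and 157.0 in KO Ang II (difference 1.74, SE 0.71, not past the threshold). The brown adipocyte markers as a whole, added up over all listed transcripts, were at 2208, 1473, 351, 738 and 2353 FPKM in KO Ang II, lowest in the same library KOAngII560. Those sums were 573 to 3209 in WT saline and 146 to 2454 in WT Ang II. Ucp1, the defining brown fat gene, was at 146.0 in KOAngII560 and at 1140.0, 668.0, 359.0 and 1230.0 in the others, and its KO saline level was not analysed here. Perivascular fat surrounds the aorta, and the part of its RNA in these differences was not tested. In WT the 11 members had a median difference of -0.91, and without the libraries numbered below 500 in the KO groups 0 of the 11 passed.

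Of 21 members of the fatty acid and lipid synthesis list, 17 were higher and 4 lower, with a median of 0.98. Of the 19 tested, 6 passed as higher and 1 as lower. Srebf1-201, the transcription factor of lipid synthesis, was at 2.41, 2.73, 1.48, 3.86 and 1.68 FPKM in KO saline and at 4.66, 9.47, 5.33, 4.45 and 5.03 in KO Ang II, fully apart (difference 0.98, SE 0.37, lost in 9 of the 10 fits without a library). In WT its means were also higher with Ang II, at 3.23 and 8.45, with libraries overlapping (adjusted p = 0.936), but WTAngII580 stood at 25.2, and without it the WT Ang II mean was 4.26. Fabp2-201 and Fabp6-201, fatty acid binding proteins of the gut, are among the 6 that passed as higher. Mfn2-203, of the mitochondrial fusion protein mitofusin 2, was at 29.5, 3.91, 48.5, 0.0 and 2.61 and at 47.2, 48.8, 32.4, 34.8 and 42.5 (difference 2.44, SE 0.87, lost in 8 of the 10). Without the libraries numbered below 500, 1 of the lipid members passed as higher and 0 as lower.

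All 26 members of the intestinal epithelium list, from 24 genes, were higher in KO Ang II, 23 were tested and 21 passed. They are alpha-defensins of Paneth cells (Defa genes), the secreted lectins Reg3b, Reg3g and Zg16, the goblet cell mucin Muc2, the gut fatty acid binding protein Fabp2, and Vil1 and Epcam of epithelial cells. Added up, they were at 0.461, 0.804, 0.384 and 0.521 FPKM in KONS_387, KONS_412, KONS_555 and KONS_608, at 44.0 in KONS_627, and at 44.7, 104.0, 90.0, 61.8 and 63.3 in KO Ang II. In the first 4 KO saline libraries 23 of the 26 were listed at 0, against 1 of 26 in KONS_627 and 0 or 1 in KO Ang II. The 12 that WT tables hold summed to 0.243 to 0.909 in WT saline, with 11 of 12 at 0, and to 0.214, 0.354 and 0.383 in 3 WT Ang II libraries. WTAngII580 and WTAngII581 stood apart at 28.5 and 25.2, with none of the 12 at 0. Reg3b-201 had the largest difference, 2.96 (SE 0.44), at 0.0 in 4 KO saline libraries, 3.1 in KONS_627, and 7.23, 11.7, 11.9, 8.12 and 8.62 in KO Ang II. Defa24-201 was at 5.14 in KONS_627 and at 3.51, 11.6, 10.7, 6.37 and 7.02 in KO Ang II (difference 2.53, SE 0.53). The sum was over 10 FPKM in 5 of 5 KO Ang II, 1 of 5 KO saline, 2 of 5 WT Ang II and 0 of 5 WT saline libraries, and the part of intestinal RNA in other differences was not tested. Defensin genes are near-identical copies, so values of single Defa transcripts are uncertain. Without KONS_627, 23 of 23 passed, and without the libraries numbered below 500, 6 of 25. Many of the 26 reached a mean of 0.5 FPKM only in KO Ang II, among them Defa17-201, Vil1-201 and Epcam-201. Their KO saline means were 0.199, 0.322 and 0.161 FPKM, against 2.15, 1.23 and 0.959 in KO Ang II. Such transcripts appear to be listed and tested because they are high there. The counts that were higher or passed are therefore no support for an effect of Ang II.

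**Figure D3:**
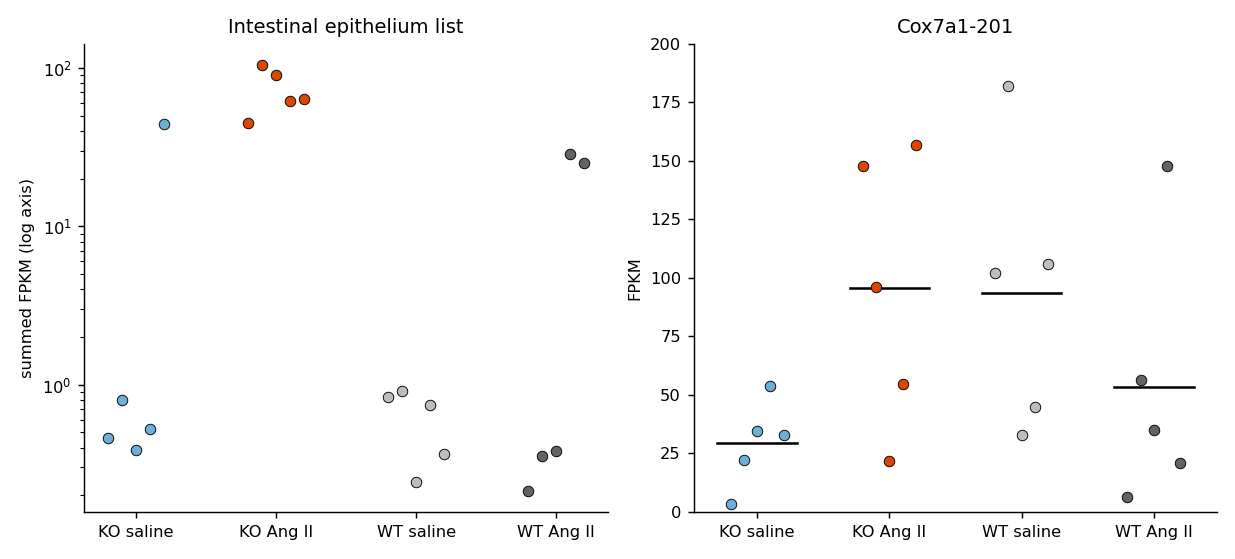
Left, FPKM summed over the intestinal epithelium list in each library on a log axis, over 26 transcripts in the KO groups and the 12 of them listed in the WT groups; KONS_627 lies at 44.0 and the other KO saline libraries under 1. Right, FPKM of Cox7a1-201 in each library with the group mean as a line, overlapping between all groups.

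Most lists of gene expression machinery, transport and signalling were split in direction, near the 662 to 462 split of all members. Among the members also listed in WT that split was 516 to 460. Over all 944 tested members, 19.8% passed as higher and 19.8% as lower. Of 19 members matched as ribosomal proteins 11 were higher and 8 lower, with 4 and 5 of 18 tested past the threshold. The 19 include the kinase Rps6kb2 and pseudogenes. Splicing and RNA-binding proteins had 10 higher and 9 lower of 19, with 4 of 15 tested past the threshold in each direction. The proteasome and ubiquitin list had 14 higher and 11 lower of 25, with 7 and 3 of 21 tested past. Zinc finger proteins had 12 higher and 11 lower of 23, with 3 and 5 of 18 tested past. Solute carriers also had 12 and 11 of 23, with 4 and 2 of 18 tested past. Membrane traffic genes had 14 higher and 10 lower of 24, with 1 and 2 of 20 tested past. Heat shock genes were not split, with 5 higher of 5 and 1 of these past the threshold. This was Hspb1-202, a small heat shock protein of smooth muscle, with means of 7.69 and 25.1 FPKM (lost in 5 of the 10 fits without a library). Kinases and phosphatases of growth signalling had 12 higher and 5 lower of 17, with 2 of 14 tested past in each direction. Map2k2-201, annotated for nonsense-mediated decay, comes from the gene of MEK2, the kinase upstream of ERK. It had the largest difference of these, with means of 6.3 and 18.0 FPKM (lost in 7 of the 10). Prkcd-207, of protein kinase C delta, was among the lower ones at 1.95 and 0.268. It made up 1.04% ± 0.966 of the Prkcd total in KO Ang II.

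Inflammatory lists were small. Of 7 members matched as cytokines, chemokines and adhesion, 5 were lower and 2 higher, and 3 passed, all lower. Among those, Ilvbl-208, of a metabolic enzyme, is off the theme of the list. Il11ra1-210, a retained intron transcript of the interleukin 11 receptor gene, was at 8.79, 27.3, 18.0, 17.9 and 7.23 FPKM in KO saline and at 4.46, 4.81, 4.66, 6.31 and 3.44 in KO Ang II. The groups were apart (difference -1.43, SE 0.44, lost in 2 of the 10 fits without a library). The WT libraries overlapped, with means of 12.8 and 9.49 (limma adjusted p = 0.983). Another Il11ra1 transcript, not a member, was 1 of the 2 that passed in WT Ang II against WT saline. Il33-202, of the alarmin interleukin 33, had means of 4.8 and 13.8 FPKM and was not past the threshold. Egfl7-201, the only member on the endothelial marker list, was lower and fully apart, with means of 3.54 and 0.115. It made up only 0.695% ± 0.582 of the Egfl7 total in KO Ang II, so it says little of the gene or of endothelium. Krt19-201, the only member on the mesothelial list, was higher and fully apart, with means of 0.473 and 1.81. No member belonged to the renin-angiotensin or immediate early lists, nor to the marker lists of fibroblasts, macrophages, T and NK cells, B cells, mast cells, neutrophils, white adipocytes, sympathetic neurons, Schwann cells, red cells or pancreatic acini. These were not analysed here.

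**Figure D4:**
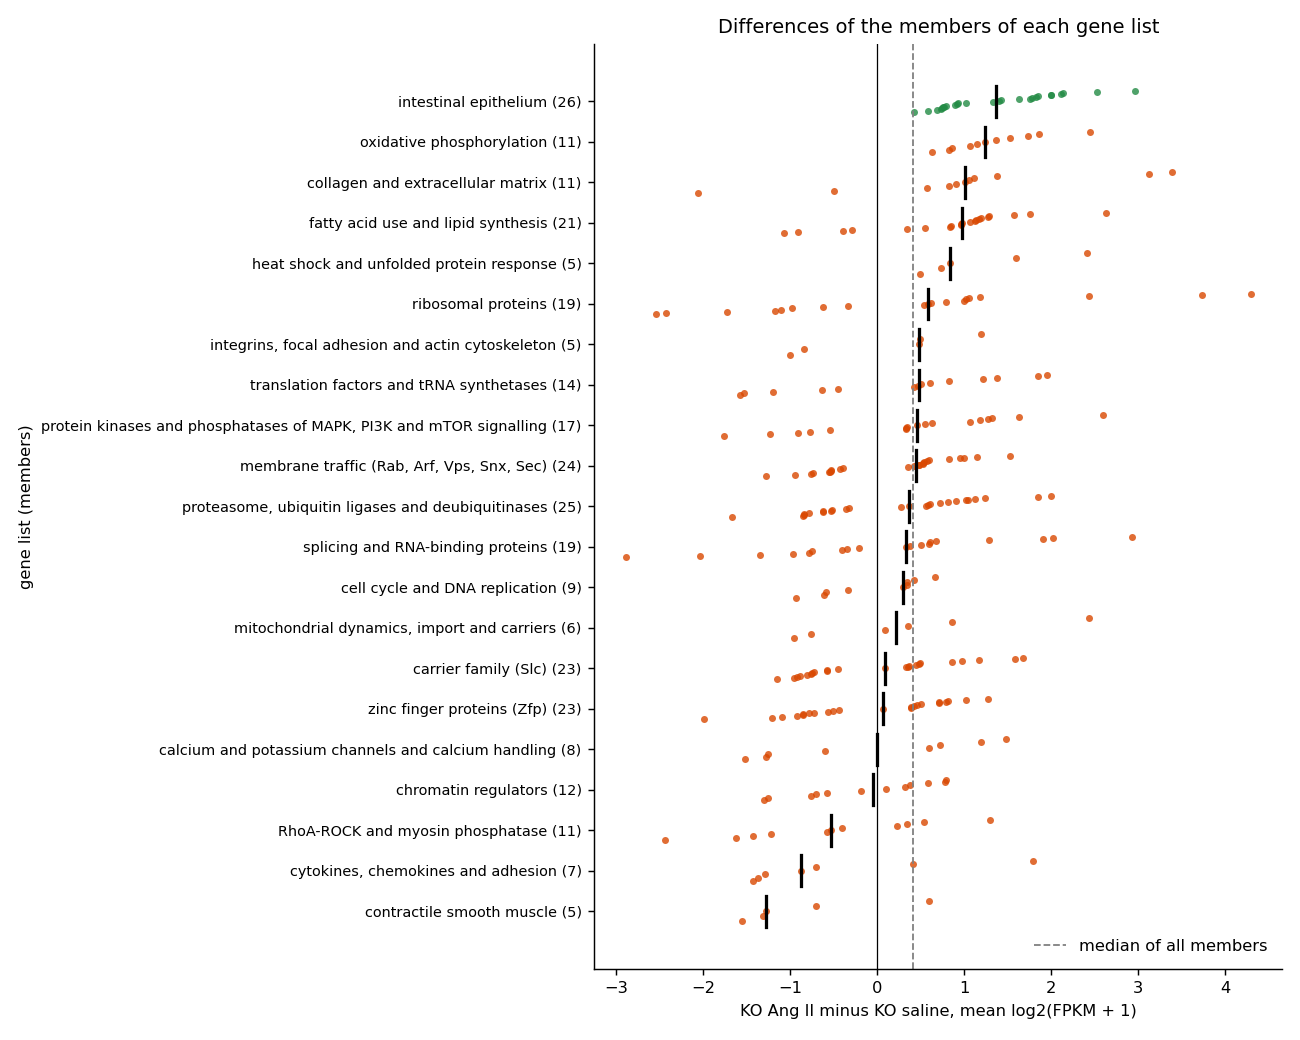
Difference in mean log2(FPKM + 1), KO Ang II minus KO saline, for each member (points) of the lists with at least 5 members, orange for pathways and green for cell type markers, with the list median as a black bar. The dashed line marks the median of all members, 0.41, and the intestinal, oxidative phosphorylation and heat shock lists have no member below 0.

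In kind, the members were close to the KO Ang II table as a whole. Protein-coding transcripts made up 64.5% of them (61.3% of the table), retained introns 19.8% (21.4%), processed transcripts 6.58% (6.5%) and targets of nonsense-mediated decay 5.16% (3.93%). Coding members had a median difference of 0.5, with 452 higher and 273 lower, and retained introns one of 0.29, with 117 and 105. Their median length was 1940 bases, against 1907.5 in the table, and the median number of exons was 6 in both. They tended to be minor forms of their gene. The median member made up 24.7% of its gene's listed total in KO Ang II, against 32.6% over all transcripts of the table, and 29.9% of members made up over 50% of it, against 40.9%.

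The same transcripts in WT Ang II against WT saline give a comparison that shares no library with the KO groups. Over all transcripts 2 of 29635 (0.00675%) passed at an adjusted p under 0.05 by limma, of the genes Il11ra1 and Pdcd4. An unadjusted p under 0.05 was found for 1486 (5.01%), and 278 (0.938%) were without overlap between groups. Of the members, 887 were tested there, 0 passed, 69 (7.78%) had an unadjusted p under 0.05, and 14 (1.58%) were without overlap. Of the 976 members listed in all 4 groups, 516 were higher in KO Ang II than in KO saline, and 246 of these (47.7%) were also higher in WT Ang II than in WT saline. Of the 460 lower ones 182 (39.6%) were lower in WT. In all 428 of 976 (43.9%) had the same direction, and of the 338 past the threshold in KO 155 (45.9%) did. The members that were higher in KO had a median difference of 0.79 there and -0.03 in WT, and those that were lower had -0.81 and 0.08. Their median absolute difference was 0.8 in KO and 0.29 in WT, where it was 0.19 for all transcripts tested. Over all transcripts tested in WT, 51.9% were higher with Ang II. As 0 members passed in WT, the sign of a single WT difference is uncertain. Whether the 43.9% differs from such a background was not tested. WT saline means lay between the 2 KO means for 661 of the 976, nearer to KO saline for 481 and nearer to KO Ang II for 495.

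**Figure D5:**
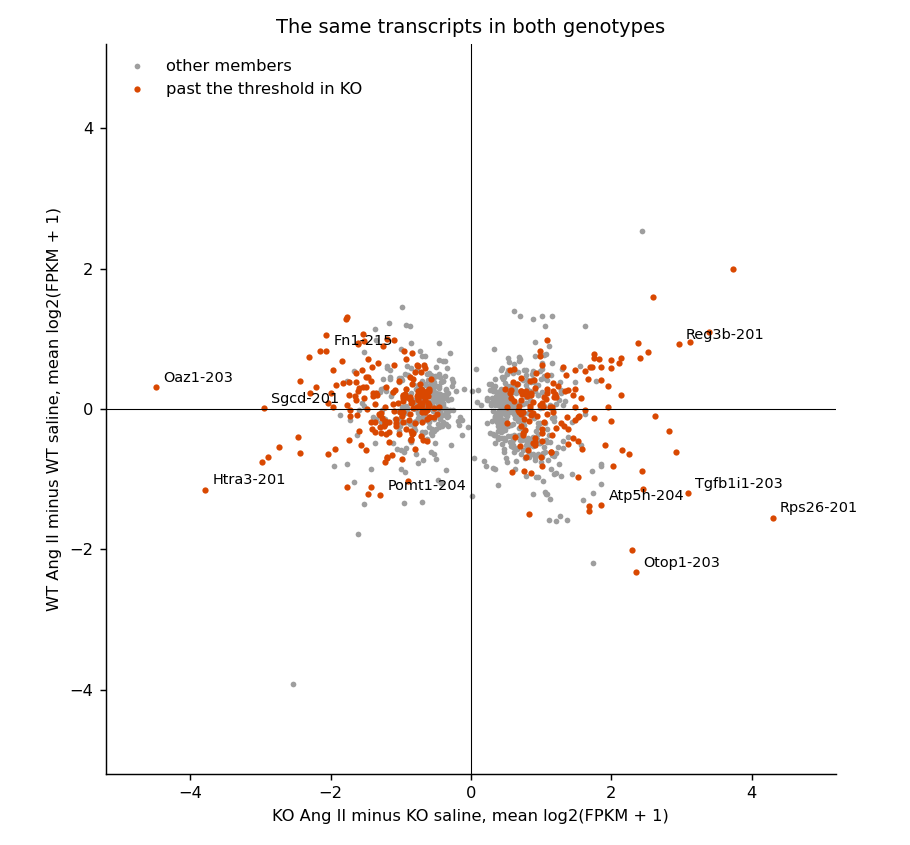
Each point is 1 of the 976 members listed in all 4 groups, with the KO difference (KO Ang II minus KO saline) on the horizontal and the WT difference (WT Ang II minus WT saline) on the vertical axis, both in mean log2(FPKM + 1); orange points were past the threshold in KO. Few points lie near 0 on the horizontal axis, and 43.9% lie in the 2 quadrants of equal direction.

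Pomt1-204, a retained intron transcript of a protein O-mannosyltransferase gene, was the only member without overlap in both genotypes in the same direction. It was at 4.09, 2.12, 3.7, 2.68 and 4.3 FPKM in KO saline, at 0.769, 0.0251, 2.03, 0.0 and 2.01 in KO Ang II, at 1.53, 1.63, 1.14, 1.71 and 3.36 in WT saline and at 0.952, 0.0, 0.0353, 0.0483 and 0.108 in WT Ang II. It was lower with Ang II in each genotype, with a WT difference of -1.23 (SE 0.24, limma adjusted p = 0.537). Qsox1-201 and Papola-218 were without overlap in opposite directions. Qsox1-201, a secreted sulfhydryl oxidase that forms disulfides in matrix proteins, was at 3.23, 2.11, 2.84, 2.21 and 5.47 in KO saline and at 0.209, 0.267, 0.259, 0.313 and 0.616 in KO Ang II. It made up 0.792% ± 0.547 of the Qsox1 total in KO Ang II. Its WT values were 0.151 to 0.278 with saline and 0.308 to 0.902 with Ang II, so KO saline stood above all other groups. Papola-218, a 295-base transcript of a poly(A) polymerase gene, had means of 0.219 and 0.511 in KO and of 0.71 and 0.325 in WT.

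The difference between the Ang II effects of the genotypes was fitted over 915 members, and 24 of them (2.62%) passed at an adjusted p under 0.05 by limma, 7 higher and 17 lower. It contains the KO difference for which the rows appear to have been kept, so it is not independent of that choice. Leaving out WTAngII580 raised the count to 146, WTNS_523 to 44, KOAngII560 to 47. The largest was Oaz1-203, at -4.8 (adjusted p = 0.0157). Otop1-203, of a proton channel known from brown fat and the inner ear, was at 0.883, 0.241, 12.6, 0.377 and 9.47 FPKM in KO saline and at 30.0, 18.1, 5.1, 11.7 and 35.0 in KO Ang II. In WT it was at 22.7, 35.0, 10.8, 8.31 and 0.0237 with saline and at 2.12, 0.226, 0.183, 0.0767 and 5.23 with Ang II, an effect difference of 4.69 (adjusted p = 0.0437). Its KO and WT differences were of opposite sign and like size, 2.36 and -2.33. Atp5h-204 showed 3.24 (adjusted p = 0.0134), with WT saline at 2.25 to 15.6 and WT Ang II at 1.29 to 2.11. Slc39a7-201, a zinc transporter of the endoplasmic reticulum, showed 3.14 (adjusted p = 0.024), with means of 0.747 and 4.42 in KO and 7.02 and 2.95 in WT. For Atp5h-204, Slc39a7-201, Otop1-203 and Stab1-204 the WT saline mean was near that of KO Ang II.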

How the data were processed

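RNA of 20 abdominal aorta libraries was sequenced. Per the labels' protocols, 1 µg of TRIzol-extracted RNA went into each NEBNext Ultra library. The submitters' processing notes name bcl2fastq, FastQC, fastp and mm10, without versions. The sources used here name no aligner or quantifier. The authors deposited FPKM per transcript, a unit read from the values, since the file headers do not name it. Depth worked out from the steps between low values was 59 to 75.0 megareads per library, with 98% to 99.2% of low values within 0.05 reads of a whole number. Names, exons and sequences came from GENCODE M21 on GRCm38.

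Differences were fitted with limma 3.58.1 (R 4.3.3, trend and robust) on log2(FPKM + 1), for members listed in every library of the groups compared with a mean of at least 0.5 FPKM, each adjusted over all transcripts tested (0.05). The pseudocount of 1 understates changes of low transcripts. The fit was tested on simulated data. The members, gene lists and the rule for named transcripts were chosen with earlier results of these data known. The rule takes tested Dapk transcripts, the 12 largest differences in each direction past the threshold, without overlap and with at least 1 FPKM in the higher group, the 5 largest interactions, up to 4 members of each list, and the tested transcripts of genes with at least 2. The WT fit over all transcripts, Pomt1-204, Papola-218 and Qsox1-201 were chosen after seeing the data. Some transcripts that the rule takes are not reported here. Alternatives were other pseudocounts, filters, scaling, weights and left-out libraries.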

Additional observations from a re-analysis of the deposited data

Results flagged for a closer look

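In 20 of 117 groups of 5 libraries examined (the described transcripts in each KO group, with a repeated entry of Papola-218, and the intestinal sum), 1 library stood apart from the other 4 by Dixon's ratio (over 0.71). Chance gives this in about 1 in 20 groups for independent, normally distributed values, whereas these FPKM are skewed and often 0, so the rate that chance gives here is not known. KONS_387 was apart for Fn1-216 at 4.6 FPKM (others 1.82 to 2.62), Camk2d-228 at 4.68 (others up to 0.00266) and Stab1-204 at 8.17 (others up to 0.0928). KONS_412 was apart for Tgfb1i1-203 at 1.14 (others up to 0.106) and Dapk3-205 at 1.89 (others up to 0.203). KONS_555 was high for Il33-202 at 18.7 (others up to 2.76). KONS_608 was high for Atp2b4-204 at 1.84 (others up to 0.928). It was low for Smtn-206 at 0.406 (others 0.755 to 0.806) and Arhgap29-201 at 2.76 (others 16.1 to 21.2). KONS_627 was high for Rbm39-203 at 3.41 (others up to 0.0808) and Rbm39-225 at 14.1 (others up to 7.66). It was also high for Reg3b-201 at 3.1 and Defa24-201 at 5.14, both at 0 in the others, and for the intestinal sum at 44.0 (others up to 0.804). Among KO Ang II libraries, KOAngII612 was low for Camk2d-228 at 0.446 (others 3.95 to 4.2), and KOAng_II402 was high for Rbms1-203 at 2.64 (others up to 0.347). KOAngII560 was high for Prkcd-207 at 0.943 (others up to 0.159) and Atp2b4-204 at 1.01 (others up to 0.238). KOAngII537 was high for Srebf1-201 at 9.47 (others up to 5.33) and KOAngII628 for Qsox1-201 at 0.616 (others up to 0.313).

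The Ang II difference in KO minus that in WT passed the limma interaction test for 8 of the described transcripts, in a contrast that includes the KO difference by which the rows appear to have been kept. It was -4.8 for Oaz1-203 (-4.49 in KO, 0.31 in WT, adjusted p = 0.0157), -2.12 for Rbms1-203 (-2.03 and 0.09, adjusted p = 0.0335) and -1.9 for Qsox1-201 (-1.6 and 0.3, adjusted p = 0.00039). It was 4.69 for Otop1-203 (adjusted p = 0.0437), 3.24 for Atp5h-204 (adjusted p = 0.0134), 3.16 for Stab1-204 (adjusted p = 0.0492), 3.14 for Slc39a7-201 (adjusted p = 0.024) and 2.5 for Ndufa3-204 (adjusted p = 0.0157).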

How the results depend on the processing

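The count of 374 members past the threshold in KO moved to 106 with a filter of 2 FPKM, to 75 without the libraries numbered below 500, and to 174 with all 4 groups in the fit. It was between 193 and 356 with 1 library left out, and between 290 and 492 under the other alternatives. The 24 members of the interaction became 63 with sample quality weights, 4 with a filter of 2 FPKM and 4 without the libraries numbered below 500, and were 18 to 146 with 1 library left out. In WT, alternatives chosen after seeing the data gave 1 with a pseudocount of 0.1, 0 with a filter of 2 FPKM, 1 with scaled medians, 0 with weights, 7 without the libraries numbered below 500 and 0 to 7 with 1 library left out, against 2. None of the 56 tested transcripts described by value changed direction in KO under the alternatives that tested them. Of the 47 of them past the threshold, 27 stayed past it with each library left out in turn. It was lost by 30 without the libraries numbered below 500, 14 with all 4 groups in the fit and 6 with the filter of 2 FPKM. A further 5 lost it with a pseudocount of 0.1, 2 with scaled medians, 1 with weights and 1 without trend and robust fitting. Transcripts that an alternative left untested are not counted as lost. The filter of 2 FPKM left untested Kcnma1-205 and Mlh3-203, among others, and the fit of all 4 groups Ryr2-207. The counts for these 2 alternatives therefore do not show that the rest of the 47 stayed past the threshold. No paired analysis was possible because the KO and WT groups share no library number. The low values, the unit (FPKM in place of counts) and the unknown rule by which the KO saline rows were kept limit what can be said.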
